A study of Mus musculus with 44 samples.

Results

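Replacement and linker histone variants were described in single two-cell mouse embryos through 8 genes of the deposited table of 35269 genes. They were taken by name and comprised H3f3a and H3f3b (histone H3.3), H2afz and H2afv (H2A.Z), H2afx (H2A.X), H2afy (macroH2A), and the linker histones H1f0 and H1foo. The study asked whether two-cell embryos need Dppa2 and Dppa4, a pair of small chromatin proteins, and sequenced the polyadenylated RNA of 44 embryos of the C57Bl/6 background from natural matings, captured with oligo-dT after the zona pellucida had been removed. WT embryos (n = 14) were Dppa2/4+/+ and came from ctrl-x-WT crosses. HET1 embryos (n = 15) were Dppa2/4+/−, from cKO-x-WT crosses of maternal knockout mothers (Dppa2/4m−) with Dppa2/4+/+ males. HET2 (n = 5, Dppa2/4+/−) and HOM (n = 10, Dppa2/4−/−) embryos were littermates from cKO-x-HET crosses of such mothers with Dppa2/4+/− males. In these mothers Zp3-Cre, which is active in growing oocytes, had deleted both genes, so that HET1, HET2 and HOM embryos all lacked the maternal supply of both products. Each cross was represented by 2 litters, called mating 1 and mating 2, with 10 and 4 WT, 7 and 8 HET1, 4 and 1 HET2, and 3 and 7 HOM embryos.

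Replacement histone variants are made throughout the cell cycle, mostly from polyadenylated transcripts, and dedicated chaperones place them in chromatin: HIRA and DAXX-ATRX deposit H3.3, and the SRCAP and TIP60 complexes exchange H2A for H2A.Z. H2A.X, whose gene also gives a stem-loop transcript without a poly(A) tail in S phase, is phosphorylated around DNA breaks, and macroH2A carries a large extra domain and is enriched on silent chromatin. Linker histones bind the DNA between nucleosomes. H1foo is the linker histone stored in oocytes, which occupies the parental chromatin after fertilisation and is later replaced by somatic types, whereas H1f0 is the replacement linker histone of non-dividing cells. After fertilisation H3.3 is the main H3 deposited in the paternal pronucleus, and the stored maternal transcripts are degraded while the embryo's own genome is switched on.

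Levels are given as log2 RPM, the log2 of the reads of a gene scaled to a common library size in the deposited table. A gene without reads was listed at a value that depends on the depth of the embryo, so for tests the values below 1.86 were raised to 1.86, the highest such value. Tests used limma over 16412 genes with Benjamini-Hochberg adjustment, and a gene was called at an adjusted p under 0.05. Total reads per embryo ranged from 247667 to 3163026, with medians of 1770010 in WT, 528166 in HET1, 1108889 in HET2 and 803369 in HOM embryos. Dppa2 lay between 7.67 and 9.40 log2 RPM in WT embryos and at most at 2.05 in HOM embryos, and Dppa4 was at most at 2.02 in HOM embryos. The HET2 and HOM labels had been assigned by the authors from these same transcripts, so this is no independent check of them. All 9 two-cell markers examined, among them Zscan4c and Zfp352, had reads in every group. The summed level of 9 cumulus and granulosa cell markers had a median of at most 2.03 RPM in any group and at most 17.7 RPM in any embryo, with Fshr at 0 in every embryo, and 4 sperm markers summed to at most 0.706 RPM in any embryo. Each value is a share of the RNA of a whole embryo, so fewer transcripts of a gene and more of other RNA cannot be told apart. Embryos of a litter share a mother, and apart from HET2 and HOM each litter held 1 group, so that comparisons with WT also compare different litters, 2 in each group, and fits with litters as the units are given where they change a call.

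The 2 genes of H3.3 encode the same protein from different DNA, which is what allows their transcripts to be counted apart. H3f3a lies on chromosome 1 from 180800832 to 180813943 (reverse strand, GRCm38) and H3f3b on chromosome 11 from 116021912 to 116027962 (reverse strand). Of 411 coding bases 316 were identical (76.9%), and the longest run of identical bases was 23. The first 60 coding bases of both genes are shown for this reason, 5′ to 3′, with the 13 bases that differ in capitals.
H3f3a (chr1:180811867-180811926, reverse strand): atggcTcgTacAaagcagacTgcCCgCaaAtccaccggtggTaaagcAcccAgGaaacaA
H3f3b (chr11:116023950-116024009, reverse strand): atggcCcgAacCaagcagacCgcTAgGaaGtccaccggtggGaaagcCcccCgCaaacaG
H2afz (chromosome 3, 137864487 to 137866922, forward strand) and H2afv (chromosome 11, 6427229 to 6444443, reverse strand) encode the closely related H2A.Z.1 and H2A.Z.2. They shared 306 of 387 coding bases (79.1%), with a longest identical run of 14 bases, and also differed at 13 of the first 60 bases, which in both genes are split by an intron.
H2afz (chr3:137864694-137865189, forward strand, spliced): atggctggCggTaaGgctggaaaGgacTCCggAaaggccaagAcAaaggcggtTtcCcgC
H2afv (chr11:6439397-6444339, reverse strand, spliced): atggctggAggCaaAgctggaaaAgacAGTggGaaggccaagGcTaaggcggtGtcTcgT
Other parts of these transcripts were less particular to their gene. Of the 75-base stretches of the H2afz transcript, 61.7% also occurred in other annotated transcripts, mostly of Tmcc1. For H3f3a this share was 27.9%, mostly in Gm17275, a non-coding gene on the opposite strand that shared 638 exon bases with H3f3a. Counting ignored strand, so reads of H3f3a and Gm17275 cannot be told apart in the shared bases. For H2afz no overlapping gene was annotated, and the authors kept only reads above a limit of mapping quality. How many H2afz reads this removed was not tested. The values of H3f3a and H2afz are uncertain to that extent, which bears on their levels and on the shares of both gene pairs given below. The share was 4.26% for H3f3b, 4.49% for H1f0, 6.34% for H2afy and 6.87% for H2afx, and no such stretch was found for H2afv or H1foo.

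In WT embryos H2afz and H3f3b were the most abundant members per kilobase, counting every annotated exon base of a gene. The mean level of H2afz was 7.93 ± 0.47 log2 RPM per kb (SD, n = 14) and that of H3f3b 7.87 ± 0.29, and these 2 did not differ beyond their spread (exact permutation over embryos, two-sided p = 0.7). H2afv followed at 5.76 ± 0.56, H3f3a at 4.90 ± 1.41, H1f0 at 3.20 ± 0.97, H1foo at 2.39 ± 1.60, H2afx at 0.82 ± 1.36 and H2afy at −2.82 ± 1.40. Of the 7 neighbouring pairs in this order 5 differed at an adjusted p under 0.05 (exact permutation within embryos), and the other pair that did not was H1f0 and H1foo (adjusted p = 0.212). The order stayed with the length of 1 annotated transcript per gene, an alternative chosen after seeing the data, but H2afz (1069 in place of 1776 bases) then lay above H3f3b (2514 in place of 2976) by 0.55 ± 0.56 (SD, adjusted exact permutation p = 0.00627), and H2afv and H3f3a no longer differed at this threshold (0.0877). H3f3b supplied 84.3% ± 7.7 of the reads of the H3.3 pair in WT, 81.5% ± 9.6 in HET1, 90.4% ± 5.2 in HET2 and 76.5% ± 16.3 in HOM embryos. H2afz supplied 82.5% ± 4.8, 77.4% ± 8.5, 80.6% ± 11.3 and 74.9% ± 9.0 of the reads of the H2A.Z pair. In the other 3 groups the mean of H1foo per kilobase of exon lay above that of H1f0, an order that was not tested there. In HET2 embryos these means were 3.36 (SD 3.12) and 3.13 log2 RPM per kb, and H1f0 was the higher in 3 of 5 embryos.

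**Figure D1:**
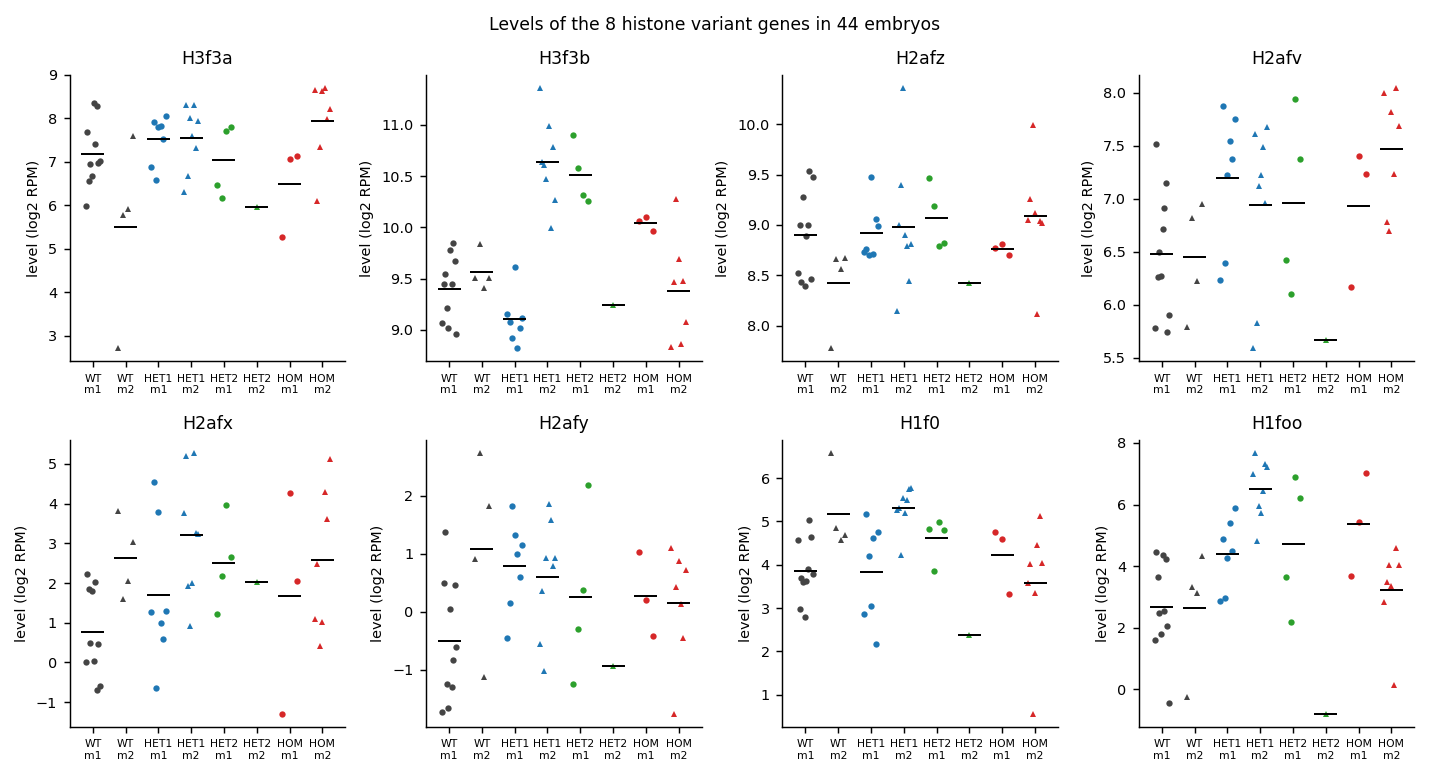
Level of each of the 8 genes (log2 RPM, vertical axis, each panel with its own scale) in every embryo, by group and mating (m1, circles, and m2, triangles), with bars at the mean of the embryos of each group in a litter and embryos without reads at a value set by their depth. H3f3b separates the 2 HET1 litters without overlap, and all 8 HET1 embryos of mating 2 lie above every WT embryo for H3f3b and H1foo.

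H3f3b, the more abundant gene of H3.3, differed mostly between litters of one cross. In WT embryos its level ran from 8.96 over a median of 9.48 to 9.85 log2 RPM. In the 7 HET1 embryos of mating 1 it ran from 8.82 over 9.08 to 9.62, and in the 8 HET1 embryos of mating 2 from 10.00 over 10.62 to 11.36. The HET1 litters did not overlap, and all 8 embryos of mating 2 lay above the highest WT embryo, traits that were not counted over all genes. The difference was 1.53 ± 0.19 (SE, log2), or 2.90-fold higher in mating 2 (limma adjusted p = 6.82e-07). Between the cKO-x-WT litters 3 of the 8 members were called, all higher in mating 2 (H3f3b, H1f0 and H1foo), beside 16.7% of all genes tested (5.01% higher and 11.7% lower). When embryos were re-centred on their medians, the genes called in this comparison numbered 1301 higher and 1293 lower, against 822 higher and 1922 lower without, and the same 3 members were called.

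In the cKO-x-HET crosses the order of the litters was the other way round for H3f3b. The 4 HET2 embryos of mating 1 stood at 10.90, 10.58, 10.31 and 10.26 log2 RPM and the 3 HOM embryos of the same litter at 10.06, 10.10 and 9.97. In mating 2 the single HET2 embryo stood at 9.24, and the 7 HOM embryos ran from 8.83 over 9.46 to 10.28. All 7 embryos of mating 1, of both genotypes, thus lay above the highest WT embryo, as did 1 of the 7 HOM embryos of mating 2. Between these litters 1 of 8 members was called, H3f3b (lower in mating 2, difference −0.83 ± 0.21, limma adjusted p = 0.0179), beside 4.94% of all genes (2.34% higher and 2.6% lower). H3f3b was called in 7 of 8 alternative analyses and not with embryos re-centred (−0.90, limma adjusted p = 0.0663). Within mating 1 the 4 HET2 embryos lay above the 3 HOM embryos for H3f3b, whereas in mating 2 the HET2 embryo lay inside the HOM range. How many of all genes separate so few embryos of mating 1 in this way was not counted. Over both litters the difference of H3f3b between HOM and HET2 embryos was −0.26 ± 0.23 (limma adjusted p = 0.98).

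Comparisons of H3f3b with WT followed which litter was used. HET1 embryos as a group differed from WT by 0.48 ± 0.23 (limma adjusted p = 0.253). Without cKO-x-WT mating 1 the difference was 1.19 ± 0.20 and was called (limma adjusted p = 7.16e-05), and without mating 2 it was −0.34 ± 0.19 (0.389). The difference from WT was 0.81 ± 0.32 in HET2 and 0.13 ± 0.26 in HOM embryos (limma adjusted p = 0.454 and 0.853).

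H3f3a, the second gene of H3.3, varied over a wider range than H3f3b and moved with sequencing depth. It ran from 2.72 over 6.96 to 8.37 log2 RPM in WT, from 6.30 over 7.79 to 8.31 in HET1, and from 5.27 over 7.67 to 8.71 in HOM embryos, with 5.97, 6.17, 6.46, 7.71 and 7.80 in the HET2 embryos. The groups overlapped, and the lowest WT embryo held 7 H3f3a reads beside 774 H3f3b reads. Between the ctrl-x-WT litters H3f3a stood at 2.72, 5.77, 5.93 and 7.60 in mating 2 and between 6.00 and 8.37 in mating 1 (difference −1.69 ± 0.58, limma adjusted p = 0.102). No member was called in this comparison, beside 2.57% of all genes (2.14% higher and 0.427% lower), and H3f3a was called in 2 of 8 alternatives. The level of H3f3a was lower in embryos with more reads (Pearson's r = −0.583 with log2 total reads over 44 embryos, Spearman's rho = −0.695, permutation adjusted p = 0.000175 and 7e-05 over 7 members). Pearson's r was −0.602 without the 2 embryos farthest from the median depth and −0.561 within litters. The difference of H3f3a between HET1 and WT embryos, 0.83 ± 0.39, was −0.01 with total reads in the model.

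**Figure D2:**
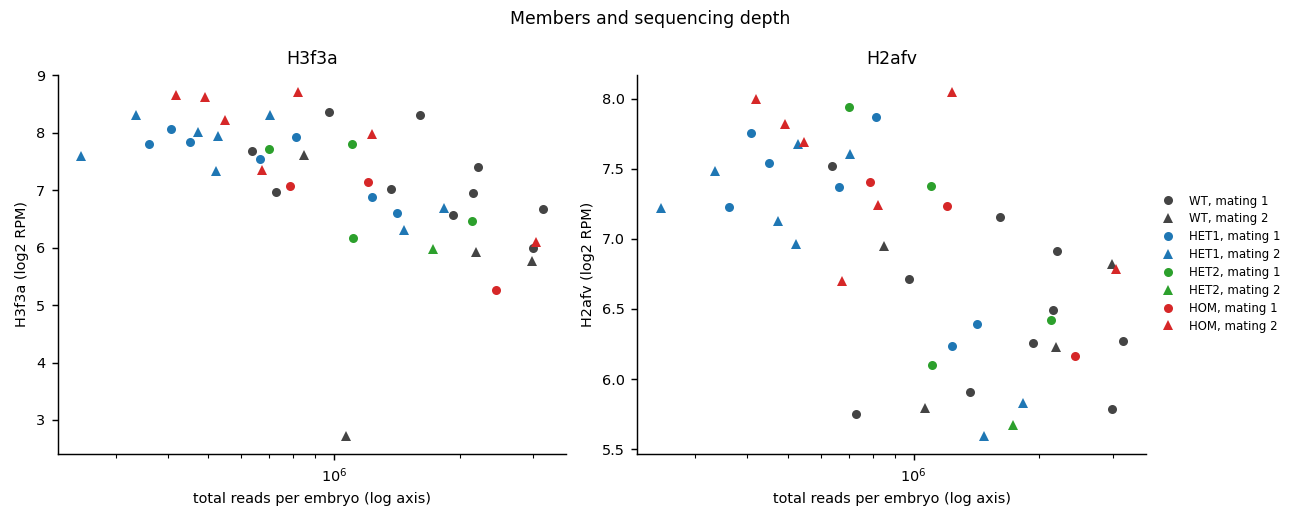
Levels of H3f3a and H2afv (log2 RPM, vertical axes) against the total reads of each embryo (horizontal log axis), 1 point for each of 44 embryos, coloured by group with a symbol for the mating. Both levels fall from left to right, within litters as well as across them.

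H2afz and H2afv were called in no comparison, here or under any of the alternatives. H2afz ran from 7.78 over 8.67 to 9.53 log2 RPM in WT, from 8.15 over 8.81 to 10.36 in HET1 and from 8.12 over 9.03 to 9.99 in HOM embryos, and stood at 8.42, 8.79, 8.82, 9.18 and 9.46 in HET2 embryos. Its difference from WT was 0.19 ± 0.18 in HET1, 0.18 ± 0.25 in HET2 and 0.23 ± 0.20 in HOM embryos (limma adjusted p = 0.592, 0.922 and 0.612), and in HOM embryos it took the opposite sign (−0.09) with embryos re-centred. H2afv ran from 5.75 over 6.38 to 7.52 in WT, from 5.59 over 7.23 to 7.87 in HET1 and from 6.17 over 7.32 to 8.05 in HOM embryos, and 4 of 7 HOM embryos of mating 2 lay above every WT embryo. The difference between HOM and WT embryos was 0.84 ± 0.28, or 1.79-fold, the largest in units of its SE among the members in this comparison, and was not called (limma adjusted p = 0.165). H2afv too was lower in embryos with more reads (r = −0.615, rho = −0.628, permutation adjusted p = 0.000175 and 7e-05, r = −0.619 without the 2 embryos farthest from the median depth and −0.576 within litters), and its HOM and WT groups differed in median depth as given above. With total reads in the model the difference of H2afv from WT was 0.51 in HOM embryos, and in HET1 embryos it was 0.0143 in place of 0.59. The log2 ratio of H2afv to H2afz within an embryo was −2.29 ± 0.53 in WT and −1.68 ± 0.81 in HOM embryos (SD, difference 0.61, two-sided permutation p = 0.0347, adjusted over 12 comparisons 0.208).

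H2afx and H2afy were near the limit of detection. H2afx had a median of 5 reads over the 44 embryos and none in 6 of them, and its difference from WT was 0.81 ± 0.39 in HET1, 0.40 ± 0.55 in HET2 and 0.79 ± 0.44 in HOM embryos (limma adjusted p = 0.253, 0.912 and 0.408). Without the floor the differences of H2afx were 1.21, 1.12 and 1.01, and with limma voom 1.03, 0.98 and 0.76, none of them called. H2afy had no reads in 29 of 44 embryos and at most 20 reads in 1 WT embryo. It had no reads in 6 of 14 WT, 10 of 15 HET1, 4 of 5 HET2 and 9 of 10 HOM embryos, and at 3 reads as the limit that a count of 0 allows, these HOM embryos could hold up to between 0.984 and 7.17 RPM each. The WT embryos with reads were 4 of 10 in mating 1 and 4 of 4 in mating 2, the latter with 1 to 20 reads. In the tests nearly all values of H2afy were raised to the floor, and it was not called against WT (limma adjusted p = 0.635 in HOM, 0.55 in HET1 and 1.0 in HET2), so no fold is given. No molecular identifiers were used, so such limits take in the error of counting alone.

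H1foo, the oocyte linker histone, was the only member called between genotype groups. It ran from −0.45 over 2.84 to 4.46 log2 RPM in WT embryos and from 2.86 over 5.71 to 7.68 in HET1 embryos. Of the HET1 embryos 4 of 7 in mating 1 and 8 of 8 in mating 2 lay above every WT embryo. With values raised to 1.86 the difference was 2.52 ± 0.53, or 5.75-fold higher in HET1 (limma adjusted p = 0.00468). It was 1 of 8 members called, beside 4.54% of all genes tested (2.49% higher and 2.05% lower). These were 409 higher and 336 lower, and 397 and 595 with embryos re-centred on their median. Without the floor 3505 genes were higher and 549 lower (21.4% higher), and with limma voom 2052 and 468 (12.5% higher), so 1 call among 8 members is not set apart from all genes. H1foo was called under each of these 3 settings. H1foo was called in 9 of 15 alternatives, with adjusted p from 8.91e-05 to 0.992. H1foo was also lower in embryos with more reads (Pearson's r = −0.439 over 44 embryos, Spearman's rho = −0.496, permutation adjusted p = 0.00667 and 0.00168 over 7 members), with an r of −0.401 without the 2 embryos farthest from the median depth and −0.289 within litters, and WT embryos had the highest and HET1 embryos the lowest median depth. The call was lost with litter as a random effect (2.47, limma adjusted p = 0.229), with litter means in place of embryos (2.41, 0.992), with total reads in the model (1.97, 0.217), without embryos under 500000 reads (2.47, 0.0572), without ctrl-x-WT mating 1 (2.36, 0.161) and without cKO-x-WT mating 2 (1.40, 0.27).

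**Figure D3:**
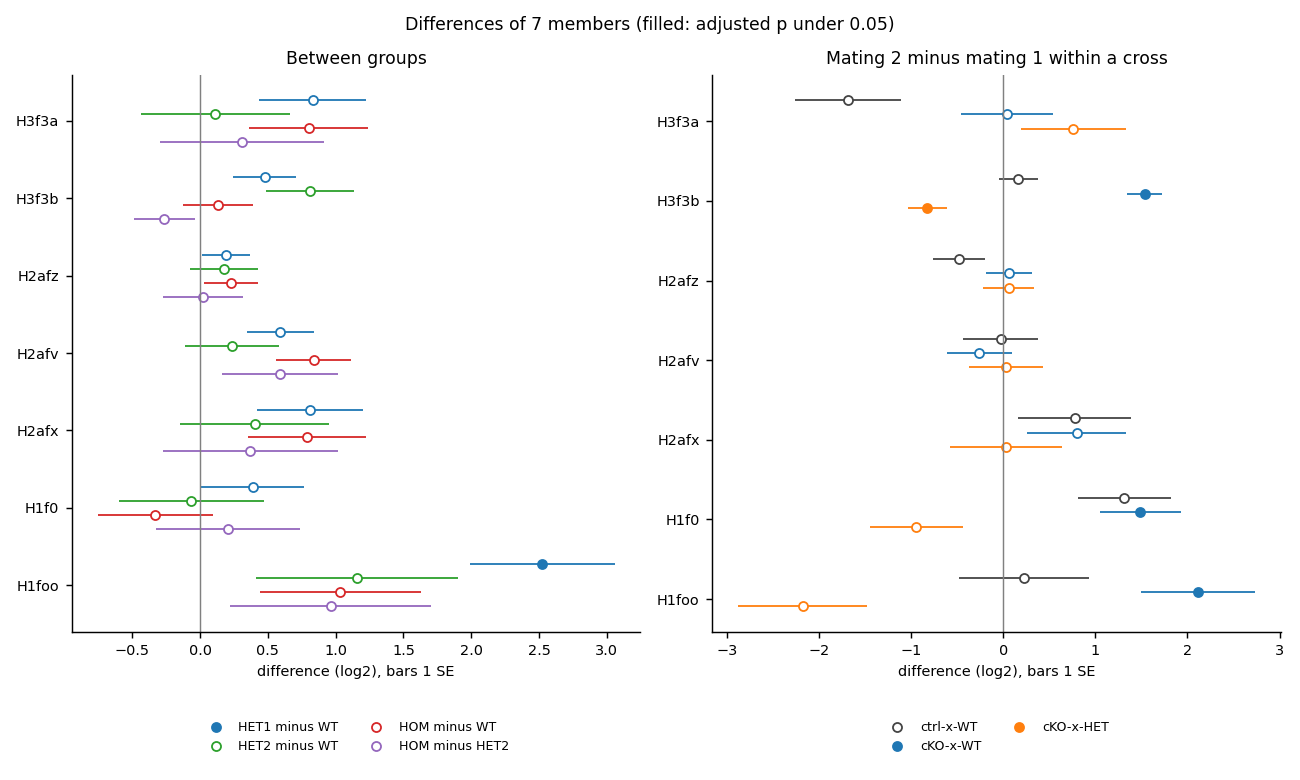
Differences of the 7 genes with enough reads, between groups (left) and between the litters of a cross (right), on the log2 scale (horizontal axis) with bars of 1 SE. Filled points are those called, which are H1foo in HET1 against WT, H3f3b, H1f0 and H1foo between the cKO-x-WT litters, and H3f3b between the cKO-x-HET litters.

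The HET1 litters differed in H1foo as well. Mating 1 ran from 2.86 over 4.50 to 5.88 log2 RPM and mating 2 from 4.80 over 6.71 to 7.68, a difference of 2.12 ± 0.62 (limma adjusted p = 0.0148), which was called in 8 of 8 alternatives. The litters overlapped in part. In the cKO-x-HET crosses H1foo stood at 2.17, 3.66, 6.20 and 6.89 in the HET2 and at 3.67, 5.44 and 7.02 in the HOM embryos of mating 1. In mating 2 the HET2 embryo stood at −0.79 with 1 read and the HOM embryos ran from 0.13 (an embryo without reads) over 3.48 to 4.60. Mating 2 was thus the lower litter here, by −2.18 ± 0.70 (limma adjusted p = 0.0598, called in 5 of 8 alternatives), whereas the WT litters had means of 2.67 and 2.63. The difference of H1foo from WT was 1.16 ± 0.75 in HET2 and 1.03 ± 0.59 in HOM embryos (limma adjusted p = 0.722 and 0.424).

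H1f0, the replacement linker histone, was also higher in HET1 mating 2 than in mating 1. It ran from 2.18 over 4.20 to 5.16 log2 RPM in mating 1 and from 4.22 over 5.40 to 5.78 in mating 2, with overlap (difference 1.49 ± 0.44, limma adjusted p = 0.0165, called in 6 of 8 alternatives and neither with limma voom, adjusted p = 0.0957, nor without embryos under 500000 reads, 0.0928). The WT embryos ran from 2.80 over 4.24 to 6.58, the HOM embryos from 0.57 over 4.02 to 5.12, and the HET2 embryos stood at 2.38, 3.85, 4.81, 4.84 and 4.98. The groups overlapped, and the differences from WT were 0.39 ± 0.38 in HET1, −0.07 ± 0.54 in HET2 and −0.33 ± 0.43 in HOM embryos (limma adjusted p = 0.611, 1.0 and 0.749).

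Within embryos the balance of the linker histones differed between HET1 and WT with embryos counted singly. The log2 ratio of H1f0 to H1foo reads was 1.58 ± 2.1001 in WT (SD, n = 14) and −0.90 ± 0.96 in HET1 embryos (n = 15), a difference of −2.48 (two-sided permutation p = 4e-05, adjusted over 12 comparisons 0.00048). Per kilobase of exon H1f0 was the higher of the pair in 10 of 14 WT, 1 of 15 HET1, 3 of 5 HET2 and 2 of 10 HOM embryos. The mean log2 ratio was 1.19 and 2.54 in the WT litters and −0.56 and −1.19 in the HET1 litters, so that both HET1 litters lay below both WT litters. Without cKO-x-WT mating 2 the difference was −2.14 and the adjusted permutation p 0.0689. This ratio uses the H1foo values already tested above and is no separate support for them. The call of H1foo was lost with litter as a random effect, with litter means and with total reads in the model. The permutation took each embryo of a litter as a unit, and no test of the ratio with litters as the units was run. Of the other 11 ratio comparisons none passed, with H1f0 to H1foo at −0.08 ± 2.29 in HOM and 0.54 ± 2.14 in HET2 embryos, and H3f3b to H3f3a at 2.74 ± 1.39 in WT, 2.38 ± 1.15 in HET1, 3.44 ± 0.95 in HET2 and 2.07 ± 1.54 in HOM embryos.

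**Figure D4:**
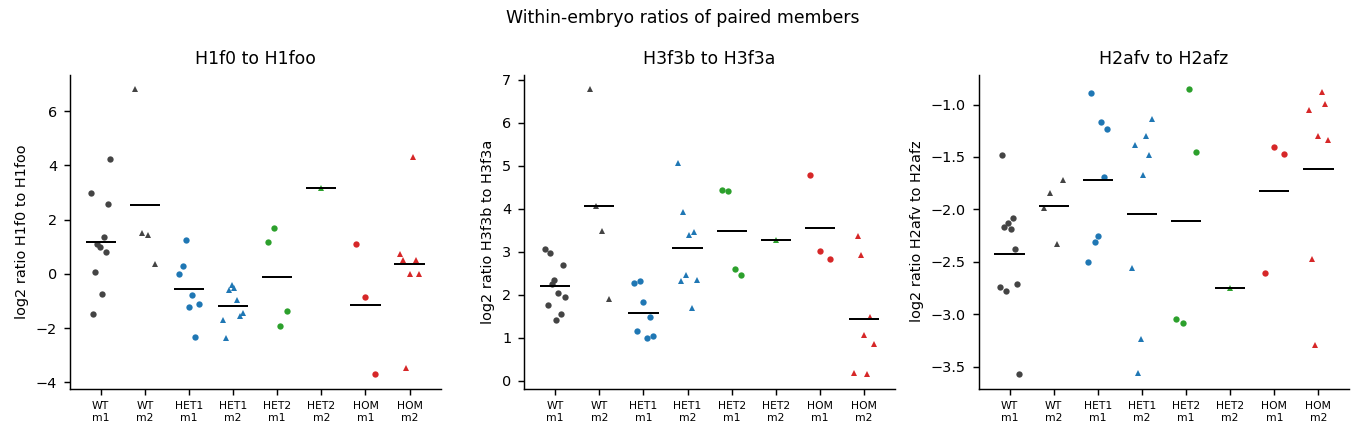
Log2 ratio of reads of H1f0 to H1foo, H3f3b to H3f3a and H2afv to H2afz (vertical axes) in each embryo, by group and mating, with bars at the mean of each. The H1f0 to H1foo means of both HET1 litters (−0.56 and −1.19) lie below those of both WT litters (1.19 and 2.54).

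No member was called between HOM and WT, between HET2 and WT or between HOM and HET2 embryos, beside 0.0183%, 0.0305% and 0.0183% of all genes tested. These were 3, 5 and 3 genes, and 2379, 1399 and 790 genes had an unadjusted limma p under 0.05. With limma voom on the recovered reads no member was called in these 3 comparisons either. In HOM against WT 6 of the 7 members with enough reads were above 0 and their median difference was 0.79, beside 0.09 for all genes. In HET1 against WT 7 of 7 were above 0 with a median of 0.59, beside 0.05 for all genes. In HET2 against WT 6 of 7 were above 0 with a median of 0.23, beside 0.00 for all genes. These 3 comparisons share the WT embryos. The gap between the members and all genes depended on the scaling. Without the floor the medians were 0.80 beside 0.49 for all genes in HOM and 0.59 beside 0.61 in HET1 against WT, and with limma voom they were 0.42 beside 0.44 and 0.56 beside 0.51. With embryos re-centred, 4 of 7 members were above 0 in HOM against WT, with a median of 0.49 beside 0 for all genes, while in HET1 it was 7 of 7 with 0.41 and in HET2 6 of 7 with 0.27. Depth and litters moved these medians as well. With total reads in the model they were 0.32 in HOM and 0.29 in HET1 against WT. Without cKO-x-WT mating 1 the median in HET1 was 1.08, and without mating 2 it was 0.38. In HOM it ran from 0.32 to 0.57 when 1 litter was left out. In HET2 against WT it was −0.74 with 0 of 7 members above 0 without cKO-x-HET mating 1, 0.49 with 7 of 7 without mating 2, and 0.04 with 4 of 7 without HET2 embryo c. Between the littermates HOM and HET2, which differed in genotype but not in mother, the differences ran from −0.26 to 0.96 with a median of 0.31, beside 0.10 for all genes. The members lay below all genes without the floor (0.15 beside 0.34) and with limma voom (0.13 beside 0.32), and at 0.00 with 4 of 7 above 0 when embryos were re-centred. Without cKO-x-HET mating 1 the median was 1.39 with 7 of 7 above 0, and without the single HET2 embryo of mating 2 it was −0.30 with 2 of 7. The difference between HOM and HET2 embryos was higher in mating 2 than in mating 1 by 2.52 ± 1.23 for H3f3a and by 1.82 ± 0.86 for H2afv (limma p = 0.047 and 0.0415 unadjusted, adjusted p = 1). As mating 2 held 1 HET2 embryo, all of these values rest on it, and the lack of a call for any member here says nothing of whether the litters were alike.

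The promoters of the 3 members that differed between the cKO-x-WT litters are shown because they are unlike in sequence. RefSeq (GRCm38.p6) gave a promoter for 7 of the 8 members, under the names H2az1, H2az2, Macroh2a1 and H1f8 for H2afz, H2afv, H2afy and H1foo, and the 250 bases before the start are printed 5′ to 3′ with matches on either strand to the TATA box (searched as TATAAA), the CCAAT box and the GC box (searched as GGGCGG) in capitals.
H3f3b (chr11:116024505-116024754, reverse strand): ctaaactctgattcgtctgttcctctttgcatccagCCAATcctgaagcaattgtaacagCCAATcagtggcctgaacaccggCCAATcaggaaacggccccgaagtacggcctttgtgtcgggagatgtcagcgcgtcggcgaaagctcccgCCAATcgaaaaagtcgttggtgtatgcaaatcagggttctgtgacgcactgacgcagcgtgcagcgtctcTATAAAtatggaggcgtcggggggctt
H1f0 (chr15:79027962-79028211, forward strand): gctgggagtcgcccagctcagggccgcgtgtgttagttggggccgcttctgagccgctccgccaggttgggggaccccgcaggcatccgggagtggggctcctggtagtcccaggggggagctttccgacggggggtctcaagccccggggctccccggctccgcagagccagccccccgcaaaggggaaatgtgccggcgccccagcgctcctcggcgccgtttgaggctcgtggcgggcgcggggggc
H1foo (chr6:115944681-115944930, forward strand): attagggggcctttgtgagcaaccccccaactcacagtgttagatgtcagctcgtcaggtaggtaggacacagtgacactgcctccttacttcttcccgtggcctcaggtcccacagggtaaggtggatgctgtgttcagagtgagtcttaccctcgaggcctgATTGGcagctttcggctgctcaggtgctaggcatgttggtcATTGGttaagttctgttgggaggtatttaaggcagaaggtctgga
The H3f3b stretch held 4 CCAAT matches and 1 TATAAA match, the H1foo stretch 2 CCAAT matches, and the H1f0 stretch none of these motifs. The H1f0 stretch ends at 79028211, before the start of the counted gene at 79028450, so the bases directly before that start were not searched. H3f3a, whose level followed depth, had 4 GGGCGG matches, which in part overlap each other, and 1 CCAAT match. H2afv held 4 CCAAT matches and 1 GGGCGG match, and H2afz 2 and 1 with 1 match to CACGTG. Among 32851 promoter stretches of this length 33.8% held CCAAT, 12.4% TATAAA, 32.7% GGGCGG and 6.02% CACGTG. The G and C content was 54.0% in H3f3b, 53.2% in H1foo, 74.4% in H1f0 and 77.2% in H3f3a. A match is a description of the letters and says nothing of which factor binds.

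Summed levels of oocyte and two-cell markers moved with these litters. The summed level of 8 oocyte markers (Zp1, Zp2, Zp3, Gdf9, Bmp15, Oosp1, Figla and Nobox, of which 7 or 8 had reads in each group) ranged from 246 to 2890 RPM in WT, 459 to 2770 in HET1, 433 to 2350 in HET2 and 388 to 2010 in HOM embryos. It had medians of 648 and 1210 RPM in the WT litters, 743 and 2310 in the HET1 litters, 2020 and 433 in the HET2 embryos, and 1920 and 761 in the HOM embryos of mating 1 and mating 2. The litters with the higher sum in HET1, HET2 and HOM embryos were those with the higher H3f3b and H1foo. The WT litters, at 648 and 1210 RPM, had H3f3b means of 9.40 and 9.56 log2 RPM and H1foo means of 2.67 and 2.63. The sum of the 9 two-cell markers was higher in the same litters, with medians in mating 1 and mating 2 of 566 and 1190 RPM in HET1, 923 and 271 in HET2 and 711 and 530 in HOM embryos, and of 436 and 434 in WT embryos. The correlation over 44 embryos with the oocyte sum was 0.672 for H3f3b, 0.589 for H1f0 and 0.636 for H1foo, and 0.108, 0.305 and 0.401 after litter means were removed, given as a description since all values of an embryo share its library. The part of either marker group in the differences between litters was not tested.

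**Figure D5:**
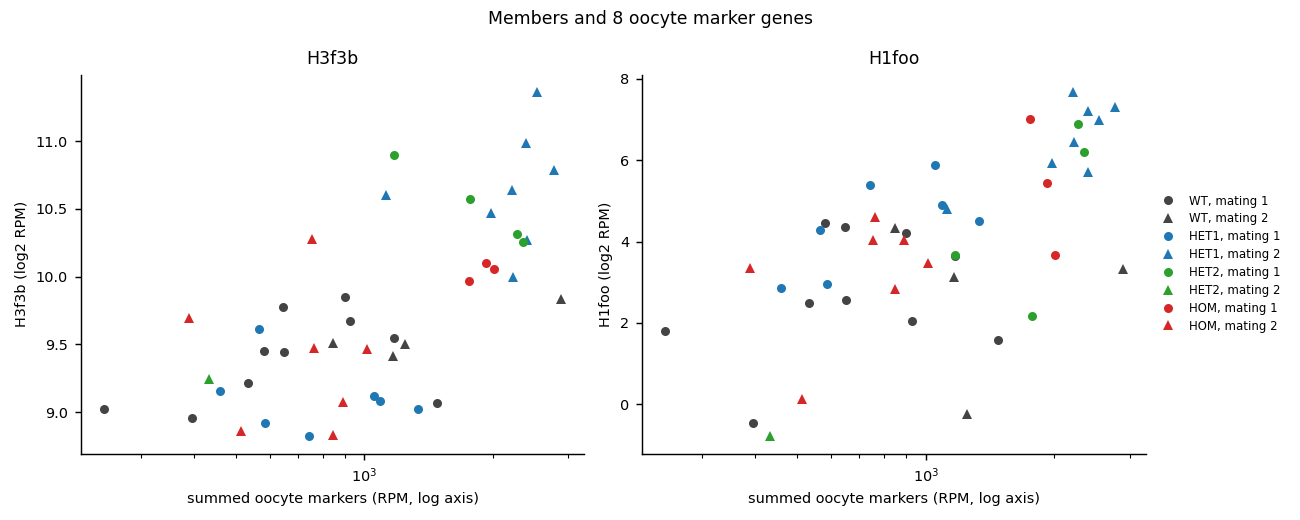
Levels of H3f3b and H1foo (log2 RPM, vertical axes) against the summed RPM of 8 oocyte marker genes (horizontal log axis), 1 point for each embryo, coloured by group with a symbol for the mating. HET1 mating 2, HET2 mating 1 and HOM mating 1 have median sums of 2310, 2020 and 1920 RPM, and all their embryos lie above every WT embryo for H3f3b, though not all for H1foo.

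Of the genes that handle these histones, 73 were listed in 7 groups and 60 were tested. Between HET1 and WT embryos 1 was higher and 5 were lower, beside 2.49% and 2.05% of all genes tested and 8.27% and 6.85% of the 6919 genes with a mean of at least 3 log2 RPM, and in HOM or HET2 against WT and in HOM against HET2 none was called. With litter as a random effect, and likewise with total reads in the model, no gene of the whole table was called between HET1 and WT. The differences named here thus rest on embryos counted singly and on a model without depth. Among 12 chaperones for H3.3, all tested, Cabin1, a partner of HIRA, was higher in HET1 (1.21 ± 0.37, limma adjusted p = 0.0478) and Nasp, a chaperone of soluble H3 and H4, was lower (−0.59 ± 0.16, 0.021). The most abundant of this group, Atrx (mean 9.31 log2 RPM) and Dek (8.28), were at −0.48 and −0.08. Among 11 other chaperones 3 were lower in HET1, the FACT subunit Supt16 (−0.94 ± 0.20, limma adjusted p = 0.00545), Nap1l1, a chaperone of H2A and H2B (−0.88 ± 0.20, 0.00754), and the nucleolar chaperone Npm1 (−0.77 ± 0.19, 0.0131). Npm1 (9.50) and Set (8.64) had the highest levels in this group, and Set was at −0.48. Of 8 partners and writers of marks on H3.3, Setd2, the methyltransferase for lysine 36 of H3, was lower in HET1 (−0.88 ± 0.17, limma adjusted p = 0.00192) and had the highest level (8.35), followed by Nsd1 (7.40), which was at 0.35. None of 17 genes for the exchange of H2A.Z was called, with Srcap (7.10) at 0.82 and Ep400 (6.93) at 0.86. The same held for 8 genes linked to the phosphorylation of H2A.X or its removal, with Ppp4c (6.93) at 0.31 and Baz1b (6.89) at −0.02. The median difference lay between 0.01 and 0.28 in these 5 groups, beside 0.05 for all genes.

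Between the cKO-x-WT litters 3 of the 60 were higher and 12 lower in mating 2, beside 5.01% and 11.7% of all genes tested, and beside 9.34% and 26.2% of the 6919 genes with a mean of at least 3 log2 RPM. Of the chaperones for H3.3, Asf1a (1.66 ± 0.44, limma adjusted p = 0.00677) and Dek (0.78 ± 0.20, 0.00668) were higher, and Hira (−1.95 ± 0.48, 0.00386), Ubn1 (−0.84 ± 0.23, 0.00983) and Nasp (−0.64 ± 0.19, 0.0144, named after its value was seen) were lower, Asf1a being the chaperone that hands H3 and H4 on to HIRA and Ubn1 a subunit of the HIRA complex. Hira and H3f3b thus differed in opposite directions between these litters. Of the genes for the exchange of H2A.Z 6 of 17 were lower and none higher, among them the actin-related proteins Actr5 (−2.099 ± 0.53, limma adjusted p = 0.00507) and Actr6 (−1.85 ± 0.47, 0.00503) and the scaffold Trrap (−1.80 ± 0.57, 0.0251), and the median of this group was −0.68 beside −0.06 for all genes and −0.38 for those with a mean of at least 3 log2 RPM. The kinases for H2A.X were split, with Atr higher (1.97 ± 0.63, limma adjusted p = 0.0247) and Atm lower (−1.51 ± 0.44, 0.0142). Set (−0.84 ± 0.26, limma adjusted p = 0.0222) and Setd2 (−0.76 ± 0.20, 0.00617) were lower as well.

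In the other crosses 2 of the 60 genes were called between litters in each. Between the cKO-x-HET litters, where 2.34% of all genes were higher and 2.6% lower, the ATPase Ruvbl2 (2.23 ± 0.66, limma adjusted p = 0.04) and Npm1 (1.04 ± 0.25, 0.0102) were higher in mating 2. Between the ctrl-x-WT litters, where 2.14% of all genes were higher and 0.427% lower, Set was lower in mating 2 (−1.12 ± 0.30, limma adjusted p = 0.0272) and Hist1h1c, a somatic linker histone, was higher (2.69 ± 0.34 on values raised to 1.86, 8.79e-07). Its mean in mating 1 lay under that floor, which shortens the difference, as the deposited litter means were −0.45 and 4.14 log2 RPM, with no litter mean above 0.77 in the other crosses. Hist1h1c was the only 1 of 5 somatic linker histones with enough reads to be tested, in libraries made from polyadenylated RNA. Of 12 other variant histone genes 10 were in the table and 3 were tested, and none was called in any comparison, with the centromeric H3 variant Cenpa (7.53) at 0.80 and H2afj (3.63) at 0.66 in HOM against WT.

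Genes whose level was most like that of each member over the 44 embryos, among genes with a mean of at least 3 log2 RPM, were Gm17275 (Pearson's r = 0.982), Fau (0.91) and Polr2f (0.893) for H3f3a, where Gm17275 is the overlapping gene named above. They were Ube2d3 (0.844), E2f5 (0.831) and Obox5 (0.828) for H3f3b, Oaz1 (0.871), Fcgr3 (0.869) and Fdft1 (0.853) for H2afv, and Cdk2ap2 (0.898), Smagp (0.883) and Tesc (0.858) for H1foo. After litter means were removed, r was 0.597 for H3f3b with Ube2d3 and 0.829 for H1foo with Cdk2ap2. The closest genes were less alike for H2afz (Mis18a, 0.581; Pdcd10, 0.566; 4933408B17Rik, 0.558), H2afx (Bod1, 0.674; Ldhb, 0.628; Gm15507, 0.628), H2afy (Cops9, 0.593; Romo1, 0.587; Add1, 0.571) and H1f0 (AU022751, 0.674; Rictor, 0.672; Siah2, 0.662). Among the members themselves H3f3a and H2afv had the highest correlation (r = 0.735, and 0.762 within litters), both of them among the genes that were lower in deeper libraries, and H3f3a and H3f3b had an r of −0.06. These correlations are descriptions, since all genes of an embryo share its library and depth.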

How the data were processed

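The data are RNA-seq libraries of 44 single two-cell embryos, grouped and assigned to litters by their labels. The authors trimmed reads (Trim Galore 0.6.5, cutadapt 2.3), mapped them to GRCm38 with HISAT2 2.1.0, kept a MAPQ of at least 20 and counted mRNA probes in SeqMonk without strand. The deposited values are log2 RPM, in which a gene without reads holds the value of 0.9 read. Dividing by it gave back reads that were whole, to a tolerance of 0.05, for 99.9997% of the values.

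The 16412 genes whose mean log2 RPM was 0 or more (all 8 members included) entered limma 3.58.1 (R 4.3.3, eBayes with trend), values under 1.86 being raised to 1.86. Groups were compared with WT in a model of 4 groups, and HOM with HET2 and litters with each other in a model of 6 litters and a HOM term. The labels give no further replicate structure, so p-values measure the spread between embryos, several of which share a mother. Ratios, the order of levels and depth relations used two-sided permutation tests (100000 resamples, exact where a group of a comparison had fewer than 10 embryos or pairs were compared). The script was tested on simulated data. Named genes were all 8 members, Dppa2 and Dppa4, in each list the 2 with the highest level and up to 3 called with the largest difference, and the 3 genes most similar to each member. Members and lists were chosen with earlier results of these data known. Alternatives covered the floor, pseudocount, filter, scaling, limma voom, litter, mating number, depth and left-out litters or embryos. Coding sequences and coordinates came from the GENCODE annotation of GRCm38, promoters from RefSeq. HET2 and HOM embryos of the same mating number share a litter by their labels. Their differences between matings had an r of 0.576 over 6919 genes, with 1 HET2 embryo in mating 2. Pairs of groups that share no litter had r from −0.75 (HET1 and HOM) to 0.429 (WT and HET1), so these values do not bear on the pairing.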

Additional observations from a re-analysis of the deposited data

Results flagged for a closer look

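The values in this section are single embryos that stood apart from the rest of their group or litter by Dixon's test at the 95% level. Chance gives about 1 such value in 20 groups, and 83 groups of values, with those under 1.86 raised to 1.86, gave 9. On the deposited values 5 of these 9 still stood apart and the 4 of H2afx and H2afy did not, so those 4 rest on the floor. In HET1 mating 1 H3f3b was highest in embryo d, at 9.62 log2 RPM of 7 embryos. In WT mating 2 embryo k had the lowest H2afz (7.78) and the highest H1f0 (6.58) of 4 embryos, and the same embryo held 7 H3f3a reads of 1065975 reads in all. H2afx was highest in embryo b of WT mating 1 (2.23, of 10), with a gap to the next embryo of 0.071 of the range on the deposited values, where 0.466 was needed. H2afy stood apart in HET2 embryo d (2.18, of the 5 HET2 embryos and of the 4 in mating 1) and in WT embryo l of mating 2 (2.74, of 4), the other embryos there having too few reads to rise above 1.86. H1f0 was lowest in HET1 embryo j of mating 2 (4.22, of 8) and in HET2 embryo b of mating 1 (3.85, of 4). None of the causes was tested.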

How the results depend on the processing

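Of 689 alternative values of single differences and ratios, 10 lost a call, 8 gained one and 17 turned direction, 14 of these being differences of members. A further 46 member differences changed sign while not called and within 1 SE of 0 in both fits, which makes 60 sign changes among 623 alternative values of these differences. In HET1 against WT, where 1 member was called, 0 were called when litter was a random effect, with litter means, with total reads as a covariate and without embryos under 500000 reads, and 0 to 2 when a litter was left out, 2 being H3f3b (1.19) and H1foo (3.51) without cKO-x-WT mating 1, where 2339 of 16412 genes were called (7.1% higher and 7.15% lower). Between the ctrl-x-WT litters 1 member was called in place of 0 with embryos re-centred and with total reads (571 and 494 of 16412 genes called), and between the cKO-x-HET litters 2 in place of 1 without the floor, with log2(RPM + 1), with total reads (740, 794 and 876 of 16412 genes) and with genes of a mean of at least 3 (880 of 6919). The ratios called, 1 of 12, came to 0 or 1 when a litter was left out. Turned values were −0.085 for H2afz in HOM against WT with embryos re-centred, −0.0133 for H3f3a in HET1 against WT with total reads, and −0.13 for H1foo in HOM against HET2 without the replicate block. Leaving out a litter or an embryo gave ranges across 0 for 18 of 28 differences between genotype groups, which were H3f3a (−0.22 to 2.01), H3f3b (−0.06 to 0.59), H2afz (−0.0001 to 0.57) and H1f0 (−1.27 to 0.05) in HOM against WT, H3f3b (−0.34 to 1.19) and H1f0 (−0.55 to 1.08) in HET1 against WT, H3f3a (−0.74 to 1.32), H3f3b (−0.21 to 1.06), H2afz (−0.34 to 0.52), H2afv (−0.80 to 0.49), H2afx (−0.15 to 0.62), H1f0 (−1.85 to 0.38) and H1foo (−1.14 to 1.73) in HET2 against WT, and H3f3a (−0.54 to 1.98), H3f3b (−0.47 to 0.14), H2afz (−0.30 to 0.66), H2afv (−0.0256 to 1.80) and H1f0 (−0.40 to 1.39) in HOM against HET2. The same held for the ratios of H3f3b to H3f3a in HET2 (−0.62 to 1.23) and HOM (−1.99 to 0.81) and of H1f0 to H1foo in HET2 (−1.998 to 1.59) against WT. The cause of these changes was not tested.

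With the mating number as a replicate block the members called stayed 0, 1 and 0 in HOM, HET1 and HET2 against WT, and without the litter block 0 in HOM against HET2. The numbers pair samples only for HET2 and HOM, which share litters. The differences between matings correlated at 0.429 for WT and HET1, −0.312 for WT and HET2 and −0.41 for WT and HOM over 6919 genes. For HET1 the r was −0.57 with HET2 and −0.75 with HOM.

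The genes called numbered 3 in HOM against WT (0 to 249 over the alternatives), 745 in HET1 against WT (0 to 4054, the highest without the floor), 5 in HET2 against WT (0 to 95) and 3 in HOM against HET2 (2 to 85). Between litters they numbered 422 (181 to 901) in ctrl-x-WT, 2744 (1160 to 3061) in cKO-x-WT and 810 (510 to 951) in cKO-x-HET. Depth limits H2afy in every group and H2afx in the 6 embryos without reads.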
